A study of Danio rerio with 6 samples.

Results

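The genes described here encode the proteasome, its activators, its inhibitor and its assembly chaperones. Every probe set whose platform gene symbol begins with psma, psmb, psmc, psmd, psme, psmf or psmg and a digit was taken, which gave 61 probe sets for 50 genes among 15617 probe sets in all. The arrays were hybridised with total RNA of whole zebrafish embryos of the Tu strain. In one group the embryos had been kept in leflunomide at 6.5 uM from 50% epiboly, a stage of gastrulation, to 24 hours after fertilization; in the other they were kept in the solvent DMSO over the same period. Each group had 3 arrays, and nothing in the labels ties them to separate clutches. The p-values therefore measure the spread between these samples only, and that spread may be technical. Leflunomide, used against rheumatoid arthritis, blocks the synthesis of pyrimidines by inhibiting dihydroorotate dehydrogenase.

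The proteasome is the protease complex that breaks down proteins tagged with ubiquitin. Its barrel-shaped core particle, the 20S, is built from alpha subunits (psma genes), which form the gates, and beta subunits (psmb genes), which include the proteolytic sites. The regulatory particle, the 19S, has a base with a ring of ATPases (psmc genes) that unfold substrates, and a lid of psmd subunits that takes off the ubiquitin. In vertebrates, activators of the psme genes can cap the core in place of the 19S, and dedicated chaperones, encoded by psmg genes and some psmd genes, help to build each particle without being part of it.

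All values are on a log2 scale and centred: 0 is the median of a probe set over the 6 arrays, so differences between arrays are kept and the level of one gene cannot be set against that of another. A coarse level was read from the rounding of the numbers. By it 40 of the 61 probe sets lay at a log2 level of 8 or more, 18 at 4 to 8 and 3 under 4. The last 3, the only probe set of psmb9a and 1 each of psmc1b and psmc3ip, were not tested, which left 58 probe sets of 49 genes. Of these genes, 2 match the symbol rule without encoding a subunit: psmc3ip is named for an interactor of psmc3 that acts in meiotic recombination in mammals, and psme3ip1 for a protein that binds psme3. Their differences, 0.28 for psmc3ip and 0.11 to 0.25 over the 4 probe sets of psme3ip1, did not pass the test described below. A gene with several probe sets was represented by the one in the highest of these level bands. Within a band, the probe set with the most specific suffix was taken, and then the first by identifier. The RefSeq gene table holds 9 more symbols of this form, among them psma3, the lid deubiquitinase psmd14 and psme4a, which were not analysed here.

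The embryos differed widely in other tissues, which is the setting for the small shifts below. All 14 tested skeletal muscle marker genes fell in leflunomide embryos, with list medians of -1.73 to -1.09 on the leflunomide arrays against 1.1 to 1.39 on the DMSO arrays. All 6 tested red cell markers fell, with medians of -2.36 to -1.19 against 1.19 to 1.49, and 7 of 9 neuronal markers fell. All 5 neural crest markers fell too, with a median difference of -2.15. These counts stand beside 11.1% of all tested probe sets that fell. None of 7 epidermal markers passed the test, beside 21.0% of all tested probe sets that did, with differences from -0.73 (tp63) to 0.34 (krt17). In 4 of these 7 leflunomide lay entirely above DMSO and in 3 entirely below, beside 22.6% and 18.7% of all tested probe sets. In RNA of whole embryos, fewer cells of a type and less RNA per cell cannot be told apart, and the part that tissue makeup plays in the proteasome values was not tested. In control transcripts spiked into the RNA, the difference between 3' and 5' probe sets ran from 0.44 to 2.00 on leflunomide array 3, against -0.71 to 0.15 on leflunomide arrays 1 and 2 and -0.58 to 0.22 on the DMSO arrays. Among endogenous control genes, the same difference was 0.48, 0.64 and 0.63 for AFFX-Dr-acta1 on the leflunomide arrays, against -0.48, -0.62 and -0.87 on the DMSO arrays. For AFFX-Dr-GAPDH it was -0.11, -0.76 and -0.91, against 0.18, 0.11 and -0.09. Both endogenous controls thus separated the groups, in opposite directions. The part of these differences in the results below was not tested either.

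Most proteasome genes differed little between the groups, and a single one, the activator gene psme1, changed by more than 2-fold. Among the 49 tested genes, 6 rose (psme1, psmd9, psmd13, psmg2, psma6a and psmd12), 2 fell (psmg3 and psmd5) and 41 did not pass limma's test at an adjusted p of 0.05. The 8 called genes stand beside 21.0% of all tested probe sets called in either direction. The 6 that rose are 12.2% of the genes tested, close to the 9.93% of all 12464 tested probe sets that rose, and the 2 that fell stand beside 11.1% of all tested probe sets that fell. The counts depended on single arrays. By probe set, with 7 higher and 2 lower in the fit of all arrays, 6, 2 and 4 in total were called without leflunomide array 1, 2 or 3, and 2, 1 and 2 without DMSO array 1, 2 or 3. The count over all tested probe sets moved too. It was 2618 with all arrays, and 2820, 1473 and 2287 without leflunomide array 1, 2 or 3. Without DMSO array 1, 2 or 3 it was 1311, 1259 and 1151. Aligning the 75th percentiles of the arrays left 4 proteasome calls, 2 in each direction, beside 2484 calls over all tested probe sets.

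**Figure D1:**
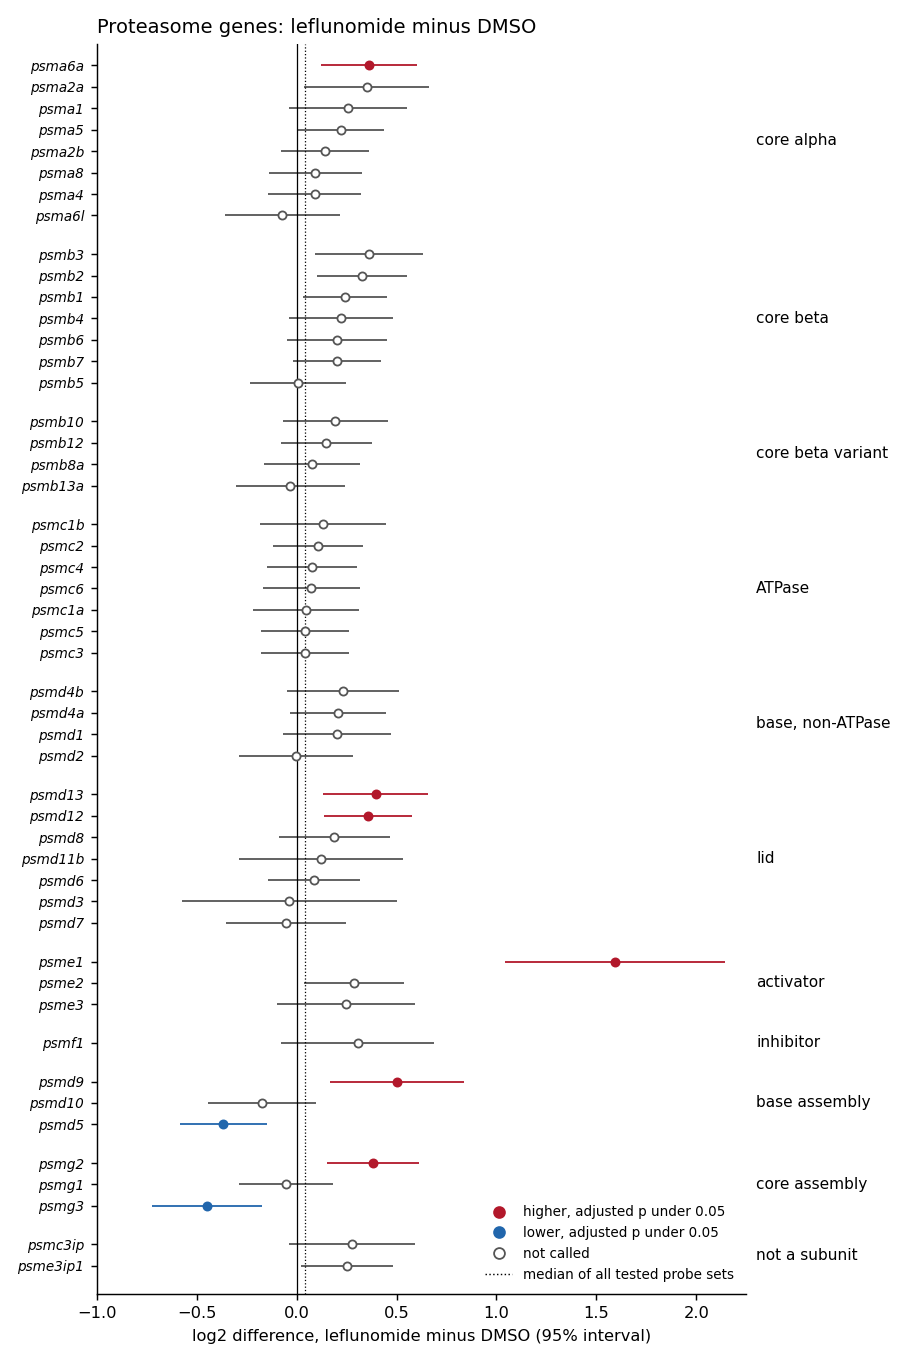
Fitted log2 difference, leflunomide minus DMSO, of the 49 tested genes (points) with 95% intervals (bars), grouped by role; filled points passed an adjusted p of 0.05 in limma, and the dotted line is the median of all tested probe sets. Most points lie just right of 0, the ATPases lie between 0.04 and 0.13, and psme1 stands apart at 1.59.

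The activators come first by size. psme1 encodes the alpha subunit of the 11S activator, which in mammals is induced by interferon gamma and opens the core to peptides. It had centred values of 0.41, 0.76 and 1.19 on the leflunomide arrays, against -0.41, -0.98 and -1.04 on the DMSO arrays. The groups did not overlap, although leflunomide array 1 and DMSO array 1 lay closest to each other. Expression of psme1 rose 3.01-fold, a log2 difference of 1.59 with an SE of 0.24 (limma adjusted p = 0.00483, 3 arrays a group). It was the only proteasome gene that stayed called in every alternative run, with differences of 1.39 to 1.79 and adjusted p of 0.00246 to 0.0305 when single arrays were dropped. The lowest of these differences, 1.39, was that without leflunomide array 3, where psme1 had its highest value.

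psme2 encodes the partner of psme1 in the same ring. Its values were 0.21, 0.03 and 0.23 on the leflunomide arrays, against -0.03, -0.22 and -0.14 on the DMSO arrays. The groups did not overlap here either, but the difference was far smaller, at 0.29 (95% interval 0.03 to 0.54, limma adjusted p = 0.0997), and it was not called. The intervals of psme1 (1.04 to 2.14) and psme2 do not meet; the difference between the genes was not tested. psme3 encodes a nuclear activator that forms a ring by itself. It had values of -0.09, 0.26 and 0.25 in leflunomide embryos and -0.32, 0.08 and -0.08 in DMSO embryos, which overlapped, with a difference of 0.25 (SE 0.15, adjusted p = 0.28). psmf1, which encodes the proteasome inhibitor PI31, had a difference of 0.31 (SE 0.17, adjusted p = 0.23) at one probe set and 0.07 at the other. At the first, leflunomide array 3 was highest at 0.56, and the other leflunomide arrays had 0.21 and -0.06.

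**Figure D2:**
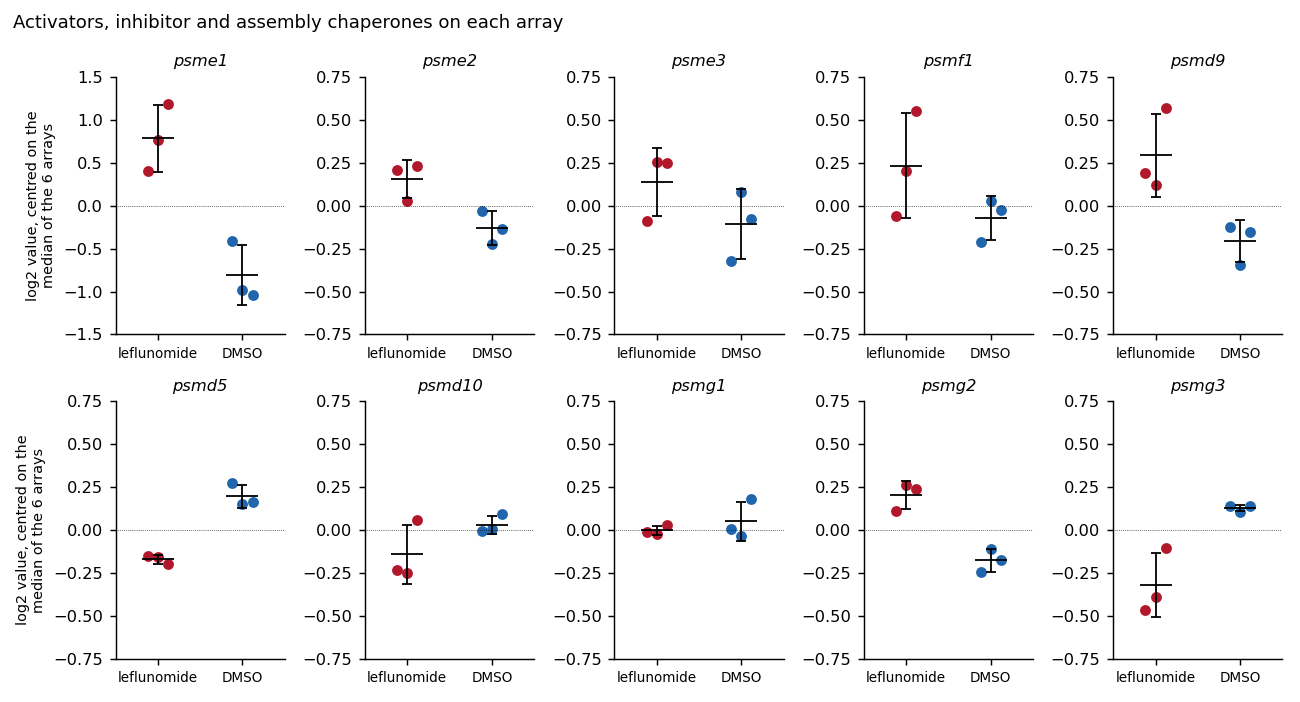
Centred log2 values of the activators (psme), the inhibitor (psmf1) and the assembly chaperones on each array, leflunomide left and DMSO right; the bar and whiskers give the mean and SD of 3 arrays, and the axis of psme1 is wider than the others. The groups separate for psme1, psme2, psmd9, psmd5, psmg2 and psmg3. Over all tested probe sets, leflunomide lies entirely above DMSO in 22.6% and entirely below in 18.7%.

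Assembly chaperones moved in opposite directions within each particle. For the 19S, psmd9, a chaperone of the base, rose at both of its probe sets. At the brighter one it had 0.19, 0.12 and 0.57 in leflunomide embryos, against -0.12, -0.35 and -0.15 in DMSO embryos, a difference of 0.50 (SE 0.14, 1.42-fold, limma adjusted p = 0.0458). At the other it had 0.19, 0.30 and 0.29, against -0.19, -0.41 and -0.19, a difference of 0.52 (SE 0.11, 1.43-fold, adjusted p = 0.0151). Thus the leflunomide arrays lay above the DMSO arrays at both. The second call was lost without DMSO array 2 alone (adjusted p = 0.06), and the first whichever array was dropped (adjusted p of 0.0523 to 0.144) and with medians or 75th percentiles of the arrays aligned.

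psmd5, another chaperone of the base, fell. It had -0.15, -0.16 and -0.20 in leflunomide embryos, against 0.28, 0.15 and 0.16 in DMSO embryos. The leflunomide arrays agreed closely with each other and lay below every DMSO array. The difference was -0.37 (SE 0.09, 1.29-fold, limma adjusted p = 0.0317), and with any 1 array left out it was -0.39 to -0.33 and no longer called (adjusted p of 0.0516 to 0.119). psmd10, known as gankyrin, the remaining base chaperone measured, had a difference of -0.17 (SE 0.12, adjusted p = 0.339), with values of -0.23, -0.25 and 0.06 against -0.01, 0.01 and 0.09.

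For the 20S, psmg2 rose and psmg3 fell. The product of psmg2 pairs with that of psmg1 to start the alpha ring, and the product of psmg3 works with that of psmg4. psmg2 had 0.11, 0.26 and 0.24 in leflunomide embryos, against -0.24, -0.11 and -0.17 in DMSO embryos, a difference of 0.38 (SE 0.10, limma adjusted p = 0.0331). psmg3 had -0.46, -0.39 and -0.11 in leflunomide embryos, against 0.14, 0.11 and 0.14 in DMSO embryos, a difference of -0.45 (SE 0.12, 1.36-fold, adjusted p = 0.0355). Neither pair of groups overlapped, and the DMSO arrays of psmg3 agreed to an SD of 0.02. Each call was lost on dropping any of 5 arrays, with adjusted p up to 0.12 for psmg2, which stayed called only without leflunomide array 1, and up to 0.109 for psmg3, which stayed called only without leflunomide array 3; psmg2 was also lost with 75th percentiles aligned. The partner gene psmg1 had differences of -0.05 and 0.08 at its 2 probe sets and was not called. pomp, the maturation factor that brings the core together, had a difference of 0.20 (SE 0.11, adjusted p = 0.245).

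The core subunits as a group lay slightly higher on the leflunomide arrays, with 1 call. Of 19 tested psma and psmb genes, 17 had a difference above 0, where 55.8% of all tested probe sets did, and the median difference was 0.20 against 0.04 over all tested probe sets. In 12 of the 19 genes, or 63.2%, every leflunomide array lay above every DMSO array, beside 22.6% of all tested probe sets; in 0 of them the order was the opposite, beside 18.7%. With 16 of 19 above 0, the direction held for all but psmb5 of these 17 genes when arrays were aligned by medians, 75th percentiles or quantiles. Of the 15 core genes at a level of 8 or more, 11 (73.3%) had leflunomide entirely above DMSO, beside 29.7% of the 3599 tested probe sets at that level, and 0 had it entirely below, beside 20.7%. These are counts of genes that share arrays and are not independent replicates. Only psma6a passed limma's test. Fitted over probe sets at a level of 8 or more alone, 4 core genes were called higher (psma6a, psmb1, psmb2 and psmb3). They stand beside 17.5% of all probe sets in that fit. With medians or 75th percentiles of the arrays aligned, 0 core genes were called higher, beside 1097 and 950 of all 12464 tested probe sets. In the fit over all tested probe sets, 6 of the 19 had an unadjusted p under 0.05, all of them higher, beside 19.0% of all tested probe sets higher and 16.7% lower at that p.

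Within the alpha ring, psma6a had 0.09, 0.31 and 0.27 in leflunomide embryos, against -0.17, -0.09 and -0.17 in DMSO embryos. The difference was 0.36 (SE 0.10, 1.28-fold, limma adjusted p = 0.0455), and the call was lost on dropping any array except leflunomide array 1 (adjusted p up to 0.139) and with medians or 75th percentiles aligned. Its close relative psma6l, at a lower level, had a difference of -0.07 (SE 0.12), with overlapping groups. psma2a had 0.04, 0.50 and 0.18 against -0.16, -0.04 and -0.13, a difference of 0.35 (SE 0.13, adjusted p = 0.104), and its paralog psma2b a difference of 0.14. Leflunomide array 2 gave the highest value for psma1, psma2a, psma2b, psma4, psma5 and psma6a. psma1 and psma5 had differences of 0.26 and 0.22, and psma4 and psma8, the symbol of which belongs to a testis form in mammals, of 0.09 each. In all, leflunomide lay entirely above DMSO for 6 of the 8 alpha genes. This stands beside 22.6% of all tested probe sets and 29.7% of those at a level of 8 or more. For 0 of the 8 did leflunomide lie entirely below DMSO, beside 18.7% of all tested probe sets. The 8 genes share the same arrays and are not independent replicates.

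The 7 constitutive beta genes all had differences above 0, beside 55.8% of all tested probe sets. None passed the test over all tested probe sets, of which 9.93% were called higher and 11.1% lower. psmb3 had 0.05, 0.27 and 0.37 in leflunomide embryos, against -0.19, -0.05 and -0.16 in DMSO embryos, a difference of 0.36 (95% interval 0.09 to 0.63, limma adjusted p = 0.0647). It was called without leflunomide array 1 (adjusted p = 0.031) and when only levels of 8 or more were tested (0.038). psmb2 had 0.10, 0.21 and 0.24 against -0.11, -0.22 and -0.10, a difference of 0.33 (95% interval 0.10 to 0.55, adjusted p = 0.0512). psmb2 was called at levels of 8 or more (adjusted p = 0.0233), with no filter on level (0.0478) and with the probe sets of each gene averaged. In both genes every leflunomide array was above every DMSO array.

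The proteolytic subunits among them had differences of 0.01 to 0.20. psmb5, the chymotrypsin-like site, had -0.08, 0.02 and 0.11 in leflunomide embryos, against 0.10, -0.02 and -0.05 in DMSO embryos, a difference of 0.01 (95% interval -0.23 to 0.25). The groups lay within each other. psmb6, the caspase-like site, and psmb7, the trypsin-like site, each had a difference of 0.20 (SE 0.11 and 0.09, adjusted p = 0.224 and 0.175), with no overlap between groups, and the intervals of all 3 genes overlap. psmb1 and psmb4, which have no proteolytic site in vertebrates, had 0.24 and 0.22. The sign of psmb5 changed under 7 of the 15 alternatives.

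The 4 tested variant beta genes gave no call, beside 21.0% of all tested probe sets called in either direction. psmb8a, psmb9a and psmb10 encode the subunits that replace the proteolytic ones in the immunoproteasome, the form that prepares peptides for MHC class I. In the RefSeq gene order psmb13a, psmb8a, psmb12 and psmb9a follow one another. psmb8a had a difference of 0.08 (SE 0.10, limma adjusted p = 0.64), psmb10 of 0.19 (SE 0.11, adjusted p = 0.267), psmb12 of 0.15 (SE 0.10, adjusted p = 0.322) and psmb13a of -0.03 (SE 0.12, adjusted p = 0.88). Only psmb12 had leflunomide arrays (0.21, 0.06 and 0.04) entirely above DMSO arrays (-0.05, -0.04 and -0.05). psmb9a, under the level that was tested, had -0.10, 0.01 and -0.24 against 0.005, -0.005 and 0.08. The increase of psme1, induced together with these genes in mammalian cells, stood beside differences of 0.19 or less for psmb8a and psmb10 and 0.29 for psme2. The cause of the psme1 increase was not tested. Among leukocyte markers lyz fell by 2.43 and mpx rose by 2.03 at the probe set that represents it, with 0.08 at another. The marker coro1a had -0.10 at the probe set that represents it and fell by 1.20 at another. Neither lcp1 (-0.71) nor spi1b (0.12) was called. By the probe sets that represent them, the 5 tested genes of that list did not move one way.

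The ATPase ring had a median difference of 0.07, the smallest among the ATPases, the rest of the base (0.20) and the lid (0.12). The differences of its 7 genes lay between 0.04 (psmc3) and 0.13 (psmc1b). Of these genes 0 passed limma's test, beside 21.0% of all tested probe sets in either direction. An unadjusted p under 0.05 was reached by 0 of them, beside 19.0% of all tested probe sets higher and 16.7% lower. psmc3 had -0.04, 0.07 and 0.01 in leflunomide embryos, against -0.01, 0.01 and -0.09 in DMSO embryos, a difference of 0.04 (95% interval -0.18 to 0.26). psmc5 had a nearly equal difference of 0.04 (95% interval -0.18 to 0.26), psmc1a of 0.05, psmc6 and psmc4 of 0.07 and 0.08, and psmc2 of 0.11. Only psmc2 had no overlap between groups, with leflunomide above. That is 14.3% of the 7 genes, beside 22.6% of all tested probe sets. All 7 ATPase genes were highest, among the leflunomide arrays, on array 2. There 7 of 7 exceeded every DMSO array, beside 41.6% of all tested probe sets. On arrays 1 and 3 the counts were 3 (42.9%) and 1 (14.3%), beside 36.7% and 41.9% of all tested probe sets. Without leflunomide array 2 the median difference of the ring was 0.01, against 0.07 with all arrays, and 1 of the 7 genes was below 0; with 75th percentiles aligned it was 0.02, and 3 of the 7 were below 0.

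The other 19S subunits were mixed. In the base, the ubiquitin receptor genes psmd4a and psmd4b had differences of 0.21 (SE 0.10) and 0.23 (SE 0.12), and the scaffold gene psmd1 of 0.25 and 0.20 at its 2 probe sets, with limma adjusted p of 0.144 to 0.258 for these 4 probe sets. The other scaffold gene, psmd2, had a difference of -0.003 (SE 0.12). psmd4a and psmd4b were each highest on leflunomide array 3, and psmd2 overlapped widely between groups. A further ubiquitin receptor of the base, adrm1, does not carry a psm symbol and rose by 0.36 (SE 0.10, 1.29-fold, adjusted p = 0.0373).

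In the lid 2 of 7 tested genes rose (28.6%), beside 9.93% of all tested probe sets. psmd13, a structural subunit, had 0.09, 0.29 and 0.32 in leflunomide embryos, against -0.29, -0.11 and -0.09 in DMSO embryos, a difference of 0.40 (SE 0.11, 1.32-fold, limma adjusted p = 0.0444). The call was lost on dropping any array except leflunomide array 1 (adjusted p up to 0.152), and with medians or 75th percentiles aligned or quantile normalization. psmd12, another structural subunit, had 0.21, 0.27 and 0.13 against -0.17, -0.13 and -0.18 at one probe set, a difference of 0.36 (SE 0.09, 1.28-fold, adjusted p = 0.0351). Its second probe set, at a lower level, had -0.29, -0.07 and 0.11 against 0.07, 0.52 and -0.10, a difference of -0.25 (SE 0.18, adjusted p = 0.375), and the mean of both was 0.05 (adjusted p = 0.785). The call of psmd12 was also lost without any 1 array other than leflunomide array 3, and with 75th percentiles aligned (adjusted p = 0.0729). psmd8, psmd11b and psmd6 had differences of 0.19, 0.12 and 0.09, and psmd3 and psmd7 of -0.04 and -0.05. psmd3 had a wide spread among leflunomide embryos, from -0.64 (array 3) to 0.30 (array 2).

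Set side by side, the core genes had the higher median and the larger share of genes without overlap. The regulatory genes had the larger share of calls in the fit over all tested probe sets, but not in every setting. The median difference was 0.20 for the 19 core genes and 0.12 for the 24 psmc, psmd and psme genes without psmc3ip and psme3ip1. Leflunomide lay entirely above DMSO in 12 of 19 core genes (63.2%), against 8 of 24 regulatory genes (33.3%). Called were 1 higher and 0 lower among the core genes (5.26% higher), against 4 higher and 1 lower among the regulatory genes (16.7% higher). Over all tested probe sets 9.93% were higher and 11.1% lower. Fitted over levels of 8 or more alone, 4 of 15 core genes and 4 of 21 regulatory genes were called higher, beside 17.5% of all probe sets in that fit. With medians of the arrays aligned, 0 core and 2 regulatory genes were called higher, beside 1097 of all 12464 tested probe sets. With assembly chaperones and activators left out of the regulatory genes, a split chosen after seeing the data, the median of the 18 remaining 19S subunits was 0.10. Among these 18, 2 were called higher (11.1%) and 0 lower, beside 9.93% and 11.1% over all tested probe sets. The 19S subunits had leflunomide entirely above DMSO in 5 of 18 genes (27.8%), near the background of 22.6%. It lay entirely below in 0, beside 18.7%. At a level of 8 or more it was above in 5 of 17 (29.4%), beside 29.7% of tested probe sets at that level. By sign the groups were closer. Differences were above 0 in 17 of 19 core genes (89.5%), 19 of 24 regulatory genes (79.2%) and 15 of 18 19S subunits (83.3%). Over all tested probe sets 55.8% were above 0. With 75th percentiles aligned, 16 core genes, 16 regulatory genes and 12 19S subunits were above 0, beside 5904 of all 12464 tested probe sets. The 15 core genes other than the variant beta genes, with psma8 and psma6l kept in, were also taken by array. Their median was 0.05, 0.17 and 0.18 on the leflunomide arrays, against -0.07, -0.05 and -0.09 on the DMSO arrays. The ATPase ring had 0.01, 0.17 and -0.01, against 0.03, -0.02 and -0.07. Thus the core medians were higher on all 3 leflunomide arrays, and the ATPase medians on array 2 alone stood clear of DMSO. With 75th percentiles aligned, which takes the same amount from every gene of an array, the medians were 0.14 for core and 0.06 for regulatory genes. No test of core against regulatory genes was made.

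**Figure D3:**
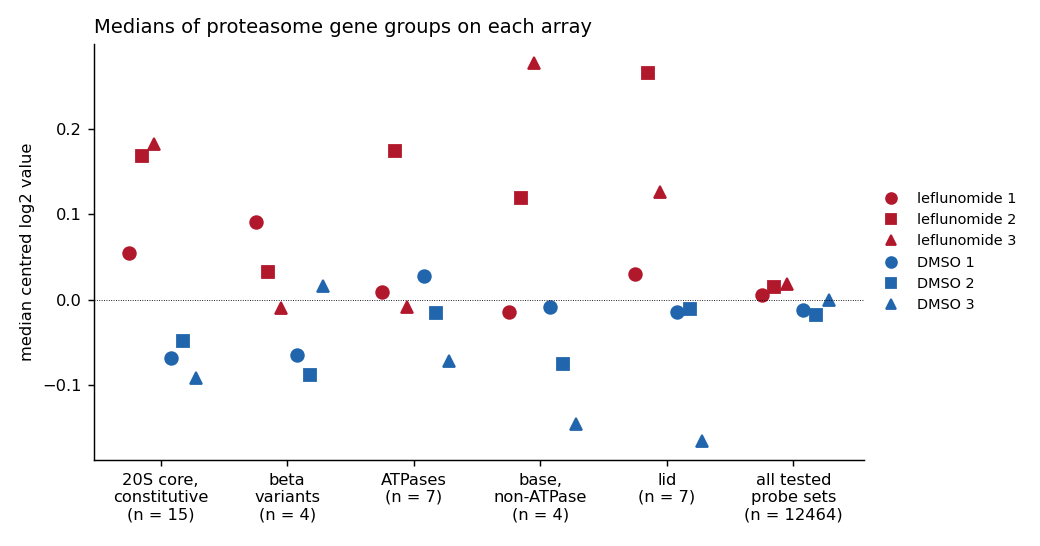
Median centred log2 value of each group of proteasome genes on each of the 6 arrays (leflunomide in red at left, DMSO in blue at right, symbols by replicate number), with all tested probe sets at the far right. The group labelled constitutive holds all tested core genes other than the variant beta genes, with psma8 and psma6l kept in. Its medians are 0.05 to 0.18 on leflunomide arrays and -0.09 to -0.05 on DMSO arrays. Those of the ATPases overlap.

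Other complexes of abundant housekeeping proteins had medians from -0.25 to 0.17. The TCP-1 ring chaperonin, which folds actin and tubulin, had a median of -0.25 over 8 genes, with 2 lower (cct5 and cct6a) and 0 higher. The 13 subunits of the translation factor eIF3 had a median of 0.17 with 1 lower (eif3hb). Of the 13, 4 (30.8%) had leflunomide entirely above DMSO, beside 22.6% of all tested probe sets and 29.7% of those at a level of 8 or more. The 71 cytosolic ribosomal protein genes had a median of -0.001, and 1 rose, the paralog rps27l (log2 1.49). The counts of called genes in these complexes stand beside 9.93% higher and 11.1% lower over all tested probe sets. The calls of cct5, cct6a and eif3hb were each lost on dropping at least 1 array, and that of rps27l was kept. These genes were named after their values were seen. The medians of the proteasome core and of eIF3 are thus close, and no test of the difference between complexes was made.

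**Figure D4:**
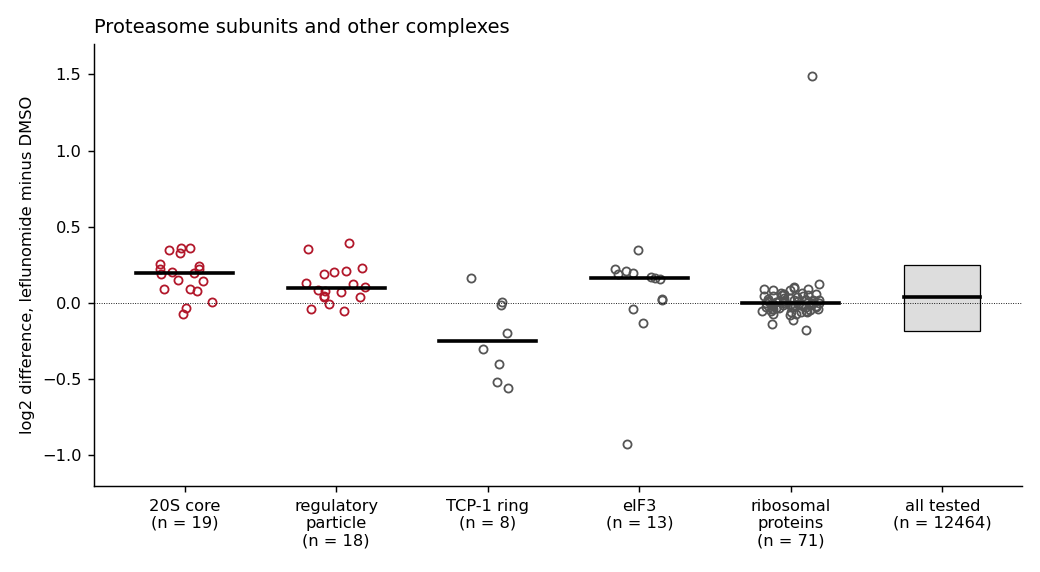
Fitted log2 difference, leflunomide minus DMSO, of each gene (circles) in the 20S core, the 19S subunits and 3 other complexes, with the median of each (black line); the grey bar is the interquartile range of all tested probe sets with their median. The core median is 0.20, the 19S median 0.10 and the TCP-1 ring median -0.25.

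Around the proteasome, genes of the ubiquitin system were counted as a list of ubiquitin-activating, conjugating and ligase genes, shuttle factors, the COP9 signalosome and proteasome-associated factors. Of 55 tested, 8 rose and 2 fell, with a median of 0.10. The 8 are 14.5%, beside 9.93% of all tested probe sets, and the 2 stand beside 11.1% of all tested probe sets that fell. Those that rose included nedd8 (0.50, SE 0.11, limma adjusted p = 0.0172), the ubiquitin-like modifier of cullins, cul1b (0.47) and rbx1 (0.47), the scaffold and ring finger subunit of cullin ligases, and the conjugating enzyme genes ube2d2l (0.60) and ube2kb (0.36). The others were adrm1, the ubiquitin ligase gene stub1 (0.42), which works with chaperones, and ngly1 (0.48). ngly1 encodes the glycanase that in mammals activates the transcription factor of proteasome genes NFE2L1. The 2 that fell were nploc4 (-0.74, SE 0.11, adjusted p = 0.00495), a cofactor of the segregase vcp, and the ubiquitin-activating enzyme gene uba1 (-0.39, SE 0.11, adjusted p = 0.0466). vcp itself had a difference of 0.20 (SE 0.20), and the polyubiquitin gene ubb had 0.39 and 0.12 at its 2 probe sets, neither called. The proteasome-bound deubiquitinase gene uchl5 had 0.33 at the probe set that represents it and 0.37 at another, and usp14 had 0.22; none was called. Of the called genes of this list, only nploc4 kept its call with any 1 array dropped (adjusted p up to 0.0282); the others lost it on dropping at least 1 array (adjusted p up to 0.158).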

How the data were processed

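Per the labels' protocols, Trizol was used to extract total RNA; 6 Affymetrix zebrafish arrays were grouped by their titles. The authors deposited log2 values from GCRMA (per the submitters' processing notes, which give no version), and base 2 is assumed since GCRMA works on that scale. The deposited values are centred, with the median of every probe set 0 within 5e-07, a step that no source used here states. Centring makes the 2 middle arrays of a probe set mirror each other. The number of arrays limits the precision.

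A coarse level was recovered from the step of single-precision numbers, which doubles at levels 4 and 8, as the band that best explained the values of a probe set. Of 15617 probe sets, 115 array controls and those under level 4 were left out, and 12464 were tested.

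Differences, leflunomide minus DMSO, were fitted in R 4.3.3 with limma 3.58.1 (lmFit, then eBayes) over all tested probe sets, with two-sided p-values adjusted by Benjamini-Hochberg and a threshold of 0.05; "called", "rose" and "fell" mean past it, and 95% intervals come from the same fit. Gene names are those of the platform annotation, and the gene identifiers of all 50 proteasome genes were found in the RefSeq table of GRCz12tu, which changed 0 of their symbols. Named were all called members, the extremes of each family, the proteolytic and variant beta subunits, activators, ubiquitin receptors, inhibitor and chaperones; others are given to complete a family. The members and lists were chosen with earlier results of these data known. With 3 arrays against 3 a permutation test cannot go below p = 0.10, so none is given.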

Additional observations from a re-analysis of the deposited data

How the results depend on the processing

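Over 15 alternatives, psme1 was the 1 of 9 called proteasome probe sets that kept its call throughout, and the other 8 lost it without at least 1 array. No called probe set changed sign. Among 49 tested proteasome probe sets that were not called, 3 (psmb1, psmb2 and psmb3) were called under at least 1 alternative, and 13 changed sign under at least 1. The count of called proteasome probe sets, 9 with all arrays, was 1 to 6 with 1 array left out and 4 with 75th percentiles aligned; the cause was not tested. The count over all probe sets, 2618, was 1151 to 2820 with 1 array left out and 1150 when only the 3599 at level 8 and above were tested. The median of core genes stayed between 0.14 and 0.23 and that of regulatory genes between 0.06 and 0.13 in every setting run.

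The titles number the replicates without saying that equal numbers were paired, and the main fit left the numbers out. The deviations of same-numbered arrays from their group means correlated at 0.333, 0.191 and 0.074, and those of other numbers at -0.234 to 0.046. Every array thus correlated best with its own number, and whether the arrays were paired was not settled. With the replicate number as a block, 2553 probe sets were called in all and 6 of the proteasome; psma6a (adjusted p = 0.0634), psmd12 (0.0599) and psmd5 (0.0568) were not. The level of each probe set is known only as a band, so signal over background cannot be stated. In the fit over all tested probe sets, the smallest proteasome difference called with 3 arrays a group was 0.36. When only levels of 8 or more were tested, psmb1 was called at 0.24.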
